A study of Homo sapiens with 68 samples.

Results

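The regions described here are 2977 sites at which libraries made without ultraviolet (UV) light listed a peak again and again, with at least 3 of 4 antibodies. Peaks of the 16 libraries titled noUV or noUV_noPAGE were pooled, overlapping peaks on the same strand were merged, and a merged interval was kept where 12 or more of the 16 libraries had a peak in it. This kept 2977 of 961900 merged intervals, or 0.309%. The sites were thus chosen by the peak calls of the 16 libraries without UV, whose values are given as a description, with no test.

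Crosslinking and immunoprecipitation (CLIP) maps where a protein touches RNA: UV light joins the protein to its RNA, an antibody pulls the protein down, and the attached RNA fragments are sequenced. Without UV no such bond is formed, so a library made that way holds RNA that came through the antibody and wash steps by other routes. Abundant, structured or mitochondrial RNAs are well known among such co-purifying fragments, which is why CLIP studies make libraries without UV as controls. Polyacrylamide gel electrophoresis (PAGE) followed by cutting out a size range is the usual step for removing RNA that is not bound to the protein.

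The study made TLC-CLIP libraries from HEK293T, a human embryonic kidney cell line, with antibodies to 4 RNA-binding proteins. These were hnRNPA1 and hnRNPc, 2 abundant nuclear proteins, hnRNPI, a regulator of splicing also known as PTBP1, and RBFOX2, a splicing factor whose antibody the labels call RBM9. All 34 groups had 2 replicates, and all libraries carried the label HEK293T. Nothing in the labels says that replicates came from separate cultures, so p-values here measure only the spread between these libraries.

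The 8 groups without UV, with the same 4 antibodies with PAGE (noUV) and without it (noUV_noPAGE), were labelled with 50000 cells and 0.005 U of RNase. The 14 crosslinked groups titled 50k had 28 libraries, also of 50000 cells. They were treated with 0.005 U of RNase (lowRNase, with PAGE, all 4 proteins), with 0.025 U (mediumRNase, hnRNPA1 and hnRNPc only), or with 0.005 U and no PAGE (noPAGE, all 4 proteins). The noPAGE_RecJ groups had no PAGE and a further removal of adapter with the nuclease RecJ. The 4 gel region groups, titled Background, were made with the hnRNPc antibody from 10000 cells and 0.001 U of RNase, and were cut from the gel at 50 to 75, 75 to 100, 100 to 150 and 150 to 250 kDa. Another 16 crosslinked libraries had lower cell numbers in their titles. Those titled 10k (0.001 U of RNase) and 1k (0.0001 U) were of hnRNPc and RBFOX2. Those titled 5k and 500 were of hnRNPc alone, with 0.005 U, no PAGE, and with or without RecJ. The protocol text of every library, those titled noUV included, describes the crosslinking step, so the absence of UV rests on the titles and the series' description.

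What was deposited for each library is a list of peaks, so the number of sequenced reads is unknown and a site is either listed or not listed. The lists without UV held 18690 to 299616 peaks, the crosslinked 50k lists 3268 to 523402, and the gel region lists 303 to 6716. The library hnRNPc_50k_lowRNase replicate 1, with 3268 peaks, stood apart from the other 27 crosslinked 50k libraries, whose lists held at least 157375. Each peak carries a read number, whose smallest value was 4, 5 or 6 depending on the list and whose definition the sources used here do not give. The read number of a site in a library is the largest among the peaks that overlap it. Read numbers are not scaled to the size of a list, so an order of antibodies in read numbers is not an order of levels. Levels are given as reads per 1000 listed reads, which divides by the summed read numbers of the list.

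The threshold of 12 libraries cuts through a falling distribution. Of the sites, 949 were listed in 12 of the 16 libraries, 686 in 13, 592 in 14, 402 in 15 and 348 in all 16. Just below the threshold, 1313 intervals were listed in 11 libraries, and 570040 of the 961900 intervals were listed in 1 library alone. The median of the sites' median read numbers was 13.5 for intervals in 12 libraries and 10.5 for those in 11, and both classes had a median width of 150 nt. The strongest intervals next to the threshold all lay on the mitochondrial chromosome. Just inside it were chrM:2664-2764 (median read number 2729) and chrM:12961-13307 (247.5), each listed in 12 libraries. Just outside it were chrM:2500-2573 (4801) and chrM:1966-2066 (4046), each listed in 11. The distribution of intervals by number of libraries shows no gap at the threshold.

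**Figure D1:**
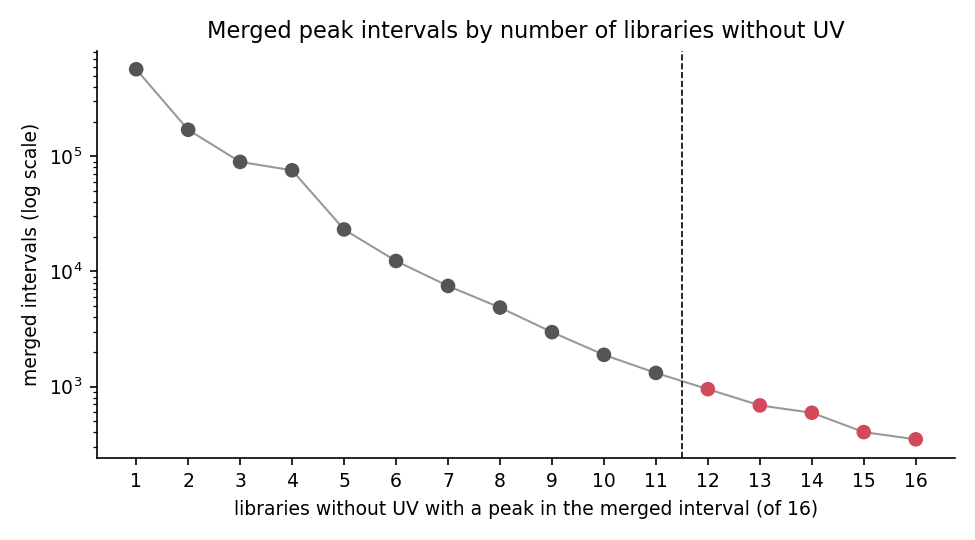
Number of merged peak intervals (vertical axis, log scale) against the number of the 16 libraries without UV that listed a peak in them (horizontal axis), with the intervals kept as recurrent sites in red right of the dashed line. The number falls from 570040 intervals in 1 library to 348 in all 16, with 1313 in 11 and 949 in 12.

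The sites were short intervals spread over the genome. Their median width was 143 nt (interquartile range 96 to 221, range 19 to 1409), and 891 of them (29.9%) were wider than 200 nt. Merging can chain neighbouring peaks, and 1962 sites (65.9%) had at least 1 base that peaks of 12 or more libraries covered at once. The positions of maximal signal were not fixed either: across the libraries that listed a site, the summits (the inner position each peak line carries) spanned a median of 91 nt (interquartile range 40 to 152), and 117 sites had all summits within 10 nt. The 812 sites of up to 100 nt had a median summit span of 30 nt, and the 2165 wider sites one of 119 nt. The plus strand held 1547 sites and the minus strand 1430.

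Some gene identifiers held many sites. The sites fell in 1297 gene identifiers, of which 730 held a single site and 160 held 5 or more, and these 160 held 1160 of the sites (39.0%). The median gap between neighbouring sites of a chromosome and strand was 5189 nt, and 920 of 2928 gaps (31.4%) were under 1000 nt. Neither these counts nor the gaps were set beside those of all merged intervals. They do not show that sites cluster more than other intervals. The files name genes by Ensembl identifier and the tables used here do not pair those with symbols, so sites are given by hg19 position; exon, intron and UTR positions were not analysed here. For 463 sites (15.6%) the lists gave more than 1 identifier.

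The identifier with most sites was ENSG00000145191 on chromosome 3, with 25 sites between 183896645 and 184053036 on the plus strand that covered 4356 nt, or 2.79% of that span. These were weak sites, with median read numbers of 9.5 to 34.5, and 1 of the 25 was listed in all 16 libraries. At that site, chr3:184043482-184043560, the lists gave 3 identifiers, so its assignment to this one is uncertain. The next, ENSG00000229807 on the minus strand of chromosome X, had 16 sites between 73041008 and 73071753 with median read numbers of 91 to 1645.5. A pair of identifiers with 15 sites each followed, on chromosome 2 between 232319713 and 232329207 and on chromosome 16 between 2806473 and 2819347, with median read numbers of 28.5 to 133 and 38 to 121. The chromosome 11 identifier with 13 sites between 65266513 and 65273415 had median read numbers of 65 to 717.5, and its sites covered 46.9% of that span. The other 5 of the 10 identifiers with most sites held 11 to 13 sites each, on chromosomes 12, 12, 7, 1 and 5, with median read numbers between 14.5 and 230.5. Identifiers rich in sites thus differed by more than 10-fold in how many reads their sites carried.

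The densest set lay on the mitochondrial chromosome, a small circular genome that encodes ribosomal RNAs, transfer RNAs and messenger RNAs of the respiratory chain and is transcribed from both strands. It held 45 of the sites (1.51%), although it held 110 of the 961900 merged intervals, so that 40.9% of its intervals were recurrent. Of the 45, 42 lay on the plus strand, where they covered 6562 nt, and 3 on the minus strand, where they covered 332 nt. They fell in 20 gene identifiers, and 30 of the 45 were listed in all 16 libraries. Their median read number without UV had a median of 310.5 (interquartile range 220.5 to 552), against 20.5 (13 to 36.5) for the 2932 nuclear sites. Their summits spanned a median of 31 nt, against 91 nt for nuclear sites.

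The highest median read number of any site, 14045, was at chrM:2200-2298 on the plus strand. With PAGE it had 24559 and 20833 reads in the hnRNPA1 libraries, 28643 and 14145 in hnRNPc, 1481 and 1425 in hnRNPI, and 3907 and 4278 in RBFOX2. Without PAGE the read numbers were 77885 and 84016, 19480 and 14926, 6399 and 7564, and 8185 and 13945 in the same order of antibodies. The site's levels per 1000 listed reads were 7.39 and 7.43 in hnRNPA1, 4.74 and 2.72 in hnRNPc, 6.94 and 4.07 in hnRNPI, and 7.43 and 10.6 in RBFOX2 with PAGE. Without PAGE these levels were 14.4 and 13.1, 5.76 and 2.85, 3.44 and 2.57, and 5.80 and 7.70. The read numbers and the levels thus gave different orders of the antibodies.

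The position chrM:1389-1500 on the plus strand was the most sharply defined of the strong sites, since its summits in all 16 libraries lay within 2 nt of each other. Its read numbers without UV ran from 1153 to 104213 with a median of 13971, highest in the 4 hnRNPA1 libraries (73082 and 62333 with PAGE, 99181 and 104213 without). The hnRNPA1 libraries were the highest per 1000 listed reads too, at 16.3 to 22.2 against 2.56 to 10.8 in the other 12. In the crosslinked 50k libraries it was listed in all 28, and the median shift between the summits without UV and those with UV was 0 nt. The other mitochondrial sites among the 12 strongest of those in all 16 libraries were chrM:2765-2902, chrM:1673-1792, chrM:2368-2467, chrM:1827-1922 and chrM:651-832. Their median read numbers lay between 6567 and 13999.5. All 7 lay on the plus strand between positions 651 and 2902 and carried 2 gene identifiers. The 3 sites of the minus strand, all in 16 libraries, were each listed in at least 26 of the 28 crosslinked 50k libraries.

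Among nuclear sites, chr11:62609095-62609283 on the minus strand had the highest median read number, 7216.5, with values from 536 to 40720. The 4 RBFOX2 libraries without UV had 8466 and 11540 reads with PAGE and 24666 and 40720 without, and the 4 hnRNPA1 libraries had 623, 536, 2249 and 2848. The hnRNPc values (5967 and 15149 with PAGE, 5485 and 17657 without) and the hnRNPI values (2189 and 2523 with PAGE, 14706 and 16297 without) lay between. After crosslinking the RBFOX2_50k_noPAGE libraries again had most, 163014 and 160867, against 8489 and 7332 in hnRNPA1_50k_noPAGE. RBFOX2_50k_lowRNase had 22905 and 16726 reads there and hnRNPA1_50k_lowRNase 878 and 764. Levels without UV were 16.1 to 28.6 per 1000 listed reads in RBFOX2 and 0.188 to 0.445 in hnRNPA1, so RBFOX2 was above hnRNPA1 on both scales.

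The site chr6:52860646-52860748 on the plus strand had the opposite antibody at its top. Its read numbers in hnRNPA1 libraries without UV were 30790 and 27871 with PAGE and 19209 and 23290 without, while the 12 libraries of the other antibodies had 374 to 2706. The same held after crosslinking: hnRNPA1_50k_lowRNase had 64320 and 57922 reads and hnRNPA1_50k_noPAGE 52483 and 56361, while no library of another antibody among the 50k groups had more than 3807. The hnRNPA1 libraries had 3.56 to 9.95 per 1000 listed reads without UV, and the other 12 had 0.177 to 2.47. After crosslinking they had 4.35 to 8.97 on that scale. The other libraries had at most 0.940, apart from 8.72 in the hnRNPc list of 3268 peaks. All 8 gel region libraries, made with the hnRNPc antibody, listed it with 62 to 199 reads.

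On chromosome 3, chr3:180949522-180949592 on the plus strand had 122 to 8807 reads (median 1600.5). Its values were higher without PAGE than with it for hnRNPA1 (950 and 1202 against 247 and 122), hnRNPI (3454 and 6378 against 172 and 239) and RBFOX2 (7025 and 8807 against 1824 and 1615). For hnRNPc the ranges overlapped, with 1586 and 6152 against 1260 and 3933. The same 3 antibodies were higher without PAGE per 1000 listed reads (RBFOX2 4.98 and 4.86 against 3.47 and 4.01) and hnRNPc again overlapped. The site was listed in all 28 crosslinked 50k libraries, with 26149 and 22157 reads in RBFOX2_50k_noPAGE, and in all 8 gel region libraries, with 6 to 39.

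The widest site of all, chrX:73046412-73047820 on the minus strand, spanned 1409 nt and its summits 1027 nt, so the libraries did not share one peak there. Without UV its read numbers in hnRNPc were 2430 and 3128 with PAGE and 2510 and 2444 without, and those in RBFOX2 were 66, 65, 182 and 215. Per 1000 listed reads, hnRNPI was the highest, at 1.90 and 2.14 with PAGE (hnRNPc 0.402 and 0.602) and 0.979 and 0.933 without (hnRNPc 0.743 and 0.466). RBFOX2 was the lowest on that scale, at 0.119 to 0.161. After crosslinking it was listed in 15 of 28 libraries: all 6 of hnRNPI (12589 to 24648), all 8 of hnRNPA1 (148 to 757) and 1 of RBFOX2 (259), but in none of the 8 of hnRNPc. The site of the same gene at the highest coordinates, chrX:73071116-73071753, was listed in 22 crosslinked libraries and in none of the 6 of hnRNPI. Without UV its hnRNPI values were 41, 105, 224 and 687, against 7504, 4184, 5748 and 4761 for hnRNPc. Per 1000 listed reads these were 0.120 to 0.300 and 0.805 to 1.70. Of the 16 sites of this gene, chosen for being listed without UV, RBFOX2_50k_noPAGE libraries listed 3 and noUV_noPAGE_RBFOX2 libraries 15. With PAGE, RBFOX2_50k_lowRNase libraries listed 6 to 7 and noUV_RBFOX2 libraries 14 to 16. The crosslinked RBFOX2_10k and RBFOX2_1k libraries listed 8 to 9.

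The chromosome 11 gene with 13 sites differed from that on X in how often its sites were listed after crosslinking. The sites of the chromosome 11 gene were listed in 84.1% of site and library pairs over the 28 crosslinked 50k libraries, and those of the X gene in 52.0%. In the gel region libraries the shares were 71.2% and 37.5%. The site chr11:65271473-65272114 on the plus strand had 28 to 1966 reads without UV. Per 1000 listed reads and with PAGE, it had 0.470 and 0.451 in RBFOX2, 0.414 and 0.329 in hnRNPA1, 0.325 and 0.229 in hnRNPc, and 0.131 and 0.149 in hnRNPI. It was listed in all 28 crosslinked and all 8 gel region libraries.

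A pair of sites on chromosome 14, chr14:50053297-50053392 on the plus strand and chr14:50329498-50329568 on the minus strand, carried read numbers that moved together. The second had 0.991 to 1.50 times the reads of the first over the 16 libraries without UV (median 1.28), while the reads themselves ran from 72 to 10394 at the first. Over the 27 crosslinked 50k libraries that listed both, the ratio was 0.750 to 1.69. Whether the pair are copies of one sequence was not analysed here; if they are, the deposited counting could have split the same reads between them, and the separate values are uncertain. At the first, the RBFOX2 libraries without UV had 5.06 to 7.46 per 1000 listed reads, above the other 12. The hnRNPA1 libraries (0.0840 to 0.183) and the hnRNPc ones (0.0139 to 0.0873) overlapped.

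**Figure D2:**
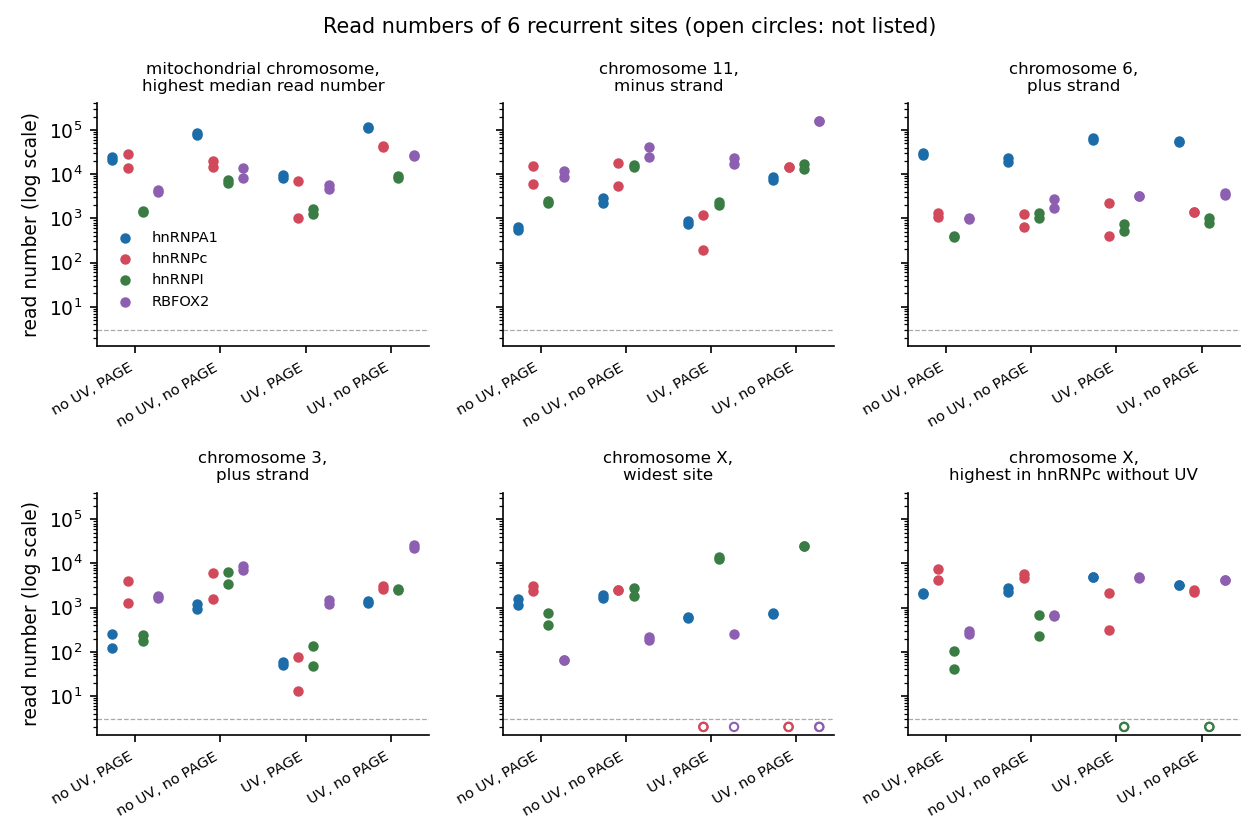
Read numbers (vertical axis, log scale) of 6 recurrent sites in each replicate library, by condition (horizontal axis) and antibody (colour), with open circles at the bottom for libraries that did not list the site. The chromosome 6 site has its highest read numbers in the hnRNPA1 libraries in every condition, and the widest site on X is not listed in any crosslinked hnRNPc library shown.

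Most sites were seen with every antibody. Of the 2977, 2880 were listed by at least 1 library of each of the 4 antibodies and 97 by 3 antibodies. The rule fixes much of this, since 12 libraries cannot come from fewer than 3 antibodies. All 4 libraries of an antibody listed 2436 sites for hnRNPA1, 2395 for hnRNPc, 1937 for RBFOX2 and 621 for hnRNPI. The hnRNPI lists without UV were among the shortest, at 18690 to 78945 peaks, and those with PAGE listed 33.9% and 41.5% of the sites. The noUV_RBFOX2 lists were as short, at 30170 and 22911 peaks, and listed 84.0% and 77.1%.

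Mean levels at a site were compared between antibodies, with no spread between replicates set beside them. On a scale of reads per 1000 listed reads, the highest antibody mean of a site exceeded the second highest by a median factor of 1.95 (interquartile range 1.32 to 3.08). This factor cannot fall below 1. Replicates of 1 antibody differed too, as at chr1:45196759-45196842 in noUV_hnRNPc (0.202 and 1.04). The scale divides by the summed read numbers of a list, and the part of list length was not tested. At 305 sites (10.2%) the factor was 5 or more, and RBFOX2 was the highest at 200 of these, hnRNPA1 at 72, hnRNPI at 17 and hnRNPc at 16. The antibody with the highest level without UV was also the highest after crosslinking at 2023 of 2947 sites (68.6%) in the libraries without PAGE, and at 1676 of 2799 (59.9%) in those with PAGE. RBFOX2 led at 1734 of those 2947 sites without UV and at 1828 after crosslinking, so this share is dominated by 1 antibody. In the libraries without PAGE, the share was 80.2% for sites led by RBFOX2 without UV and 67.0% for those led by hnRNPA1. It was 43.1% for hnRNPI and 36.9% for hnRNPc. After crosslinking hnRNPA1 led at 709 of the 2947 sites, hnRNPc at 266 and hnRNPI at 144. The shares were not set beside those that such counts alone would give, so they do not rank the antibodies by agreement.

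Recurrent sites held a large part of the reads in the lists made without UV. To compute this, overlapping peaks of a list were joined, each joined peak was given its largest read number, and the numbers at sites were summed. The share at sites was 26.1% to 56.8% of the list (median 34.8%). It was 54.3% and 56.8% in noUV_RBFOX2 and 53.3% and 54.2% in noUV_noPAGE_RBFOX2, above all 12 libraries of the other antibodies, which reached at most 43.9%. Peaks that touch without overlapping are counted separately here, which weighs strong stretches more than once. With peaks under 30 nt apart joined first, a rule added after the data were seen, the range was 11.3% to 46.5%.

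After crosslinking the share at sites was lower in most 50k lists. In the lowRNase groups it was 8.04% and 6.67% for hnRNPA1, 35.8% and 7.19% for hnRNPc, 8.20% and 13.1% for hnRNPI, and 16.6% and 17.7% for RBFOX2. The 35.8% is that of the hnRNPc library with 3268 peaks. In the noPAGE groups, the shares were 22.5% and 21.3%, 14.5% and 13.7%, 17.3% and 15.2%, and 44.4% and 45.8% in the same order. With peaks under 30 nt apart joined, the lowRNase shares were 3.87% and 3.74%, 26.8% and 4.04%, 2.42% and 2.74%, and 8.51% and 8.98% in that order. The noPAGE shares were then 9.40% and 9.19%, 5.46% and 5.32%, 4.12% and 3.85%, and 26.3% and 26.1%. By either rule the RBFOX2_50k_noPAGE lists reached the range of all lists without UV, and the other noPAGE lists stayed below it. The RBFOX2 lists without UV were higher, at 53.3% to 56.8%, or 35.2% to 46.5% with peaks under 30 nt apart joined. Within each antibody, the noPAGE lists thus stayed below the lists without UV by both rules. The difference between lists with and without UV was not tested, because the sites were chosen in the latter.

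Mitochondrial sites made up different parts of these shares. In the hnRNPA1 lists they held 17.4% and 19.0% of reads without UV and with PAGE, and 27.3% and 30.3% without PAGE. After crosslinking they held 1.99% and 1.50% with PAGE and 17.2% and 16.1% without it. In the hnRNPI lists they held 6.71% to 8.13% without UV and 0.331% to 1.44% in the lowRNase and noPAGE lists after crosslinking. The nuclear sites of RBFOX2_50k_noPAGE held 37.6% and 38.5%, of the same size as in the RBFOX2 lists without UV (32.2% to 40.0%).

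**Figure D3:**
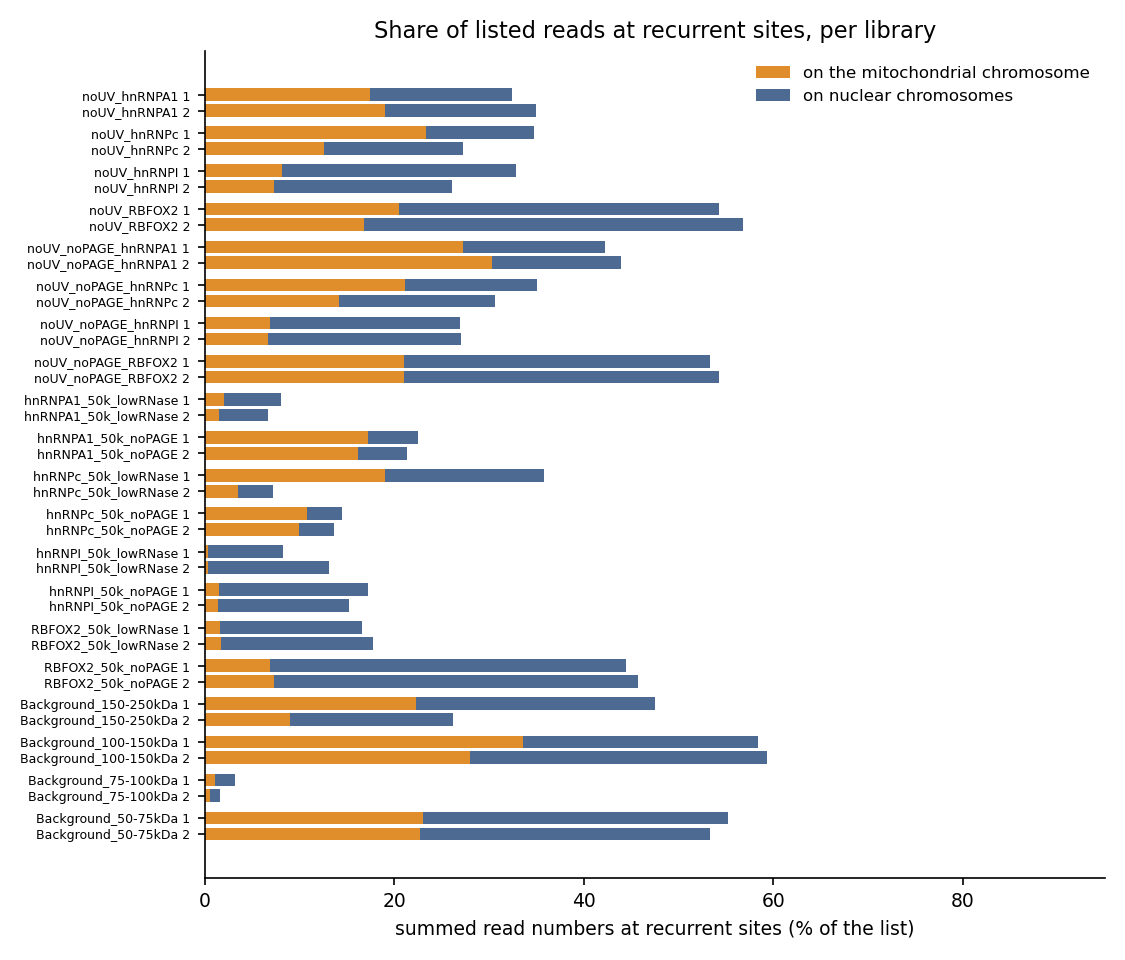
Share of each list's summed read numbers that lay at recurrent sites (horizontal axis, % of the list), 1 bar per library, split into mitochondrial (orange) and nuclear (blue) sites. The 4 RBFOX2 libraries without UV reach 53.3% to 56.8%, and the hnRNPA1 bars with UV and PAGE (lowRNase) lie at 8.04% and 6.67%.

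Nearly every site was listed somewhere after crosslinking, but few were listed throughout. At least 1 of the 28 crosslinked 50k libraries listed 2969 of the sites (99.7%), against 78.9% of all 961900 merged intervals. All 28 listed 75 sites (2.52%), against 0.0104% of all intervals. The hnRNPc list of 3268 peaks, which listed 198 sites, caps this count, and 179 sites were listed in 27 or more. The median site was listed in 16 of the 28. To set aside the sites' greater width, the single base that most libraries without UV covered was also examined: 98.7% of sites were listed at that base in at least 1 crosslinked library (68.7% of all intervals) and 0.974% in all 28 (0.00364%).

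The more libraries without UV listed an interval, the more crosslinked libraries listed it. The mean share of crosslinked 50k libraries that listed an interval was 9.60% for intervals in 1 library without UV, 17.0% for 2 to 3, 27.9% for 4 to 7, 39.5% for 8 to 11 and 58.0% for the sites. It reached 80.3% for the 348 sites in all 16. Widths differed too, with medians of 51, 80, 107, 146 and 143 nt in these classes and 127 nt for the sites in all 16. At the most covered base the shares were 6.63%, 11.8%, 20.7%, 27.1% and 43.4%.

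**Figure D4:**
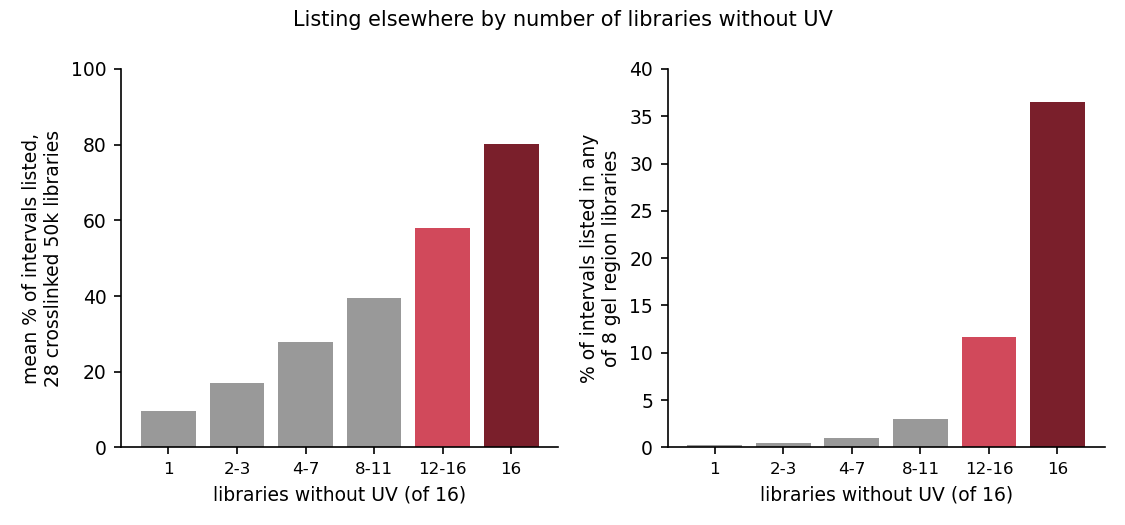
Left, mean share of the 28 crosslinked 50k libraries (vertical axis, %) that listed an interval, and right, share of intervals (%) listed in any of the 8 gel region libraries, by the number of the 16 libraries without UV that listed it (horizontal axis). Bars rise from 9.60% to 58.0% on the left and from 0.228% to 11.7% on the right for the recurrent sites, and to 80.3% and 36.5% for the sites in all 16.

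How many sites a crosslinked group listed differed with the antibody and the gel step. Both replicates of RBFOX2_50k_noPAGE listed 80.7% of the sites, against 4.72% of all merged intervals, and those of RBFOX2_50k_lowRNase 61.7%, against 5.44%. For hnRNPA1 both replicates listed 67.6% in noPAGE (14.5% of all intervals) and 50.9% in lowRNase (14.1%). For hnRNPI the values were 46.2% (7.82%) and 23.7% (5.19%). For hnRNPc they were 48.0% (12.5%) in noPAGE and, with the list of 3268 peaks as 1 of the 2 replicates, 6.45% (0.239%) in lowRNase. RBFOX2 listed most sites although its crosslinked lists were shorter, at 157375 to 260610 peaks, than those of hnRNPA1, at 365593 to 523402.

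Leaving out PAGE was followed by more sites being listed with every antibody. The percentage of sites with a peak was 58.9% and 58.2% in hnRNPA1_50k_lowRNase and 75.1% and 74.1% in hnRNPA1_50k_noPAGE. For hnRNPc it was 6.65% and 41.4% against 57.6% and 58.6%, for hnRNPI 35.9% and 36.0% against 58.4% and 55.4%, and for RBFOX2 71.1% and 71.7% against 85.2% and 86.6%. No noPAGE library overlapped the lowRNase libraries of its antibody. The mean difference was 21.4 percentage points, with all 4 antibodies higher, and passed the exact two-sided permutation test within antibodies (p = 0.00154, the smallest this design allows; 0.0123 after Benjamini-Hochberg adjustment over the 8 tests made). Without hnRNPc_50k_lowRNase replicate 1 it was 17.1 points. The 2 gel steps entered the choice of sites unequally. Of the libraries without UV, those without PAGE listed 82.8% to 97.0% of the sites (median 95.1%). Those with PAGE listed 33.9% to 94.1% (median 86.6%). The tests of PAGE, here and below, cannot tell this choice apart from a difference between gel steps. The lists themselves did not all grow: without PAGE they were longer for hnRNPc and hnRNPI, shorter for RBFOX2 (157375 and 161434 peaks against 260610 and 208407) and of overlapping length for hnRNPA1.

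The share of reads at sites did not pass the same test. It was 10.1 points higher in noPAGE on average, with 3 of 4 antibodies higher and hnRNPc lower (exact permutation p = 0.0772, adjusted 0.123). The hnRNPc mean rests on the list of 3268 peaks: without that library the difference was 13.7 points, and its adjusted exact permutation p was 0.00617. With peaks under 30 nt apart joined it was 3.58 points (adjusted exact permutation p = 0.366). The median width of the listed peaks at sites differed by -3.94 nt in noPAGE on average (exact permutation p = 0.0340, adjusted 0.0679), lower for 3 of 4 antibodies. In 12 of 32 omissions of 1 library this passed, at -4.94 to -3.94 nt (adjusted exact permutation p = 0.0288 to 0.0494). These left out either replicate of noUV_hnRNPA1, noUV_hnRNPI or noUV_noPAGE_hnRNPA1, or replicate 1 of noUV_hnRNPc or hnRNPA1_50k_noPAGE. The others left out replicate 2 of noUV_noPAGE_hnRNPc, noUV_noPAGE_hnRNPI, hnRNPA1_50k_lowRNase or hnRNPI_50k_lowRNase. Leaving out a library without UV also made the rule for sites stricter, since 12 libraries were still needed.

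None of the 3 measures passed the test for RecJ treatment. The percentage of sites listed differed by -0.554 points between the noPAGE_RecJ and the noPAGE libraries on average, with 2 antibodies higher and 2 lower (exact permutation p = 0.639, adjusted 0.852). The share of reads differed by 0.159 points (adjusted exact permutation p = 0.982) and the peak width by 0.0625 nt (exact permutation p = 1). The higher RNase dose was given for hnRNPA1 and hnRNPc only and was not tested: mediumRNase libraries listed 41.7% and 42.7% of the sites for hnRNPA1 and 28.7% and 34.1% for hnRNPc. The hnRNPA1 values are below both lowRNase replicates.

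The sites were chosen in libraries without UV of the same 4 antibodies, which entered unequally. All 4 libraries of an antibody listed 2436 sites for hnRNPA1, 2395 for hnRNPc, 1937 for RBFOX2 and 621 for hnRNPI. The tests between antibodies below cannot tell this choice apart from a difference between antibodies. With that limit, antibodies differed in the share of reads that crosslinked noPAGE lists had at the sites. The means were 45.1% for RBFOX2, 21.9% for hnRNPA1, 16.2% for hnRNPI and 14.1% for hnRNPc, a range of 31.1 percentage points that passed the exact permutation test (p = 0.00952, the smallest this design allows; adjusted 0.0381). In 3 of 24 omissions of 1 library it did not pass. Without hnRNPc_50k_noPAGE replicate 1 or 2 or hnRNPI_50k_noPAGE replicate 1 it was 31.5, 30.7 and 31.1 points, with adjusted exact permutation p of 0.0508, 0.0762 and 0.0508. With peaks under 30 nt apart joined it was 22.2 points (adjusted exact permutation p = 0.0381). The percentage of sites listed had means of 85.9%, 74.6%, 56.9% and 58.1% in the same order, a range of 29.0 points that did not pass after adjustment (exact permutation p = 0.0190, adjusted 0.0508). It passed in 8 of 24 omissions, at 26.0 to 30.5 points (adjusted exact permutation p = 0.0254 to 0.0494). These left out either replicate of noUV_hnRNPI or noUV_noPAGE_hnRNPI, replicate 1 of noUV_hnRNPc, hnRNPA1_50k_noPAGE or hnRNPI_50k_noPAGE, or replicate 2 of noUV_noPAGE_hnRNPc. Omissions of a library without UV made the rule for sites stricter here too. The hnRNPc and hnRNPI replicates overlapped on this measure, at 57.6% and 58.6% against 58.4% and 55.4%.

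**Figure D5:**
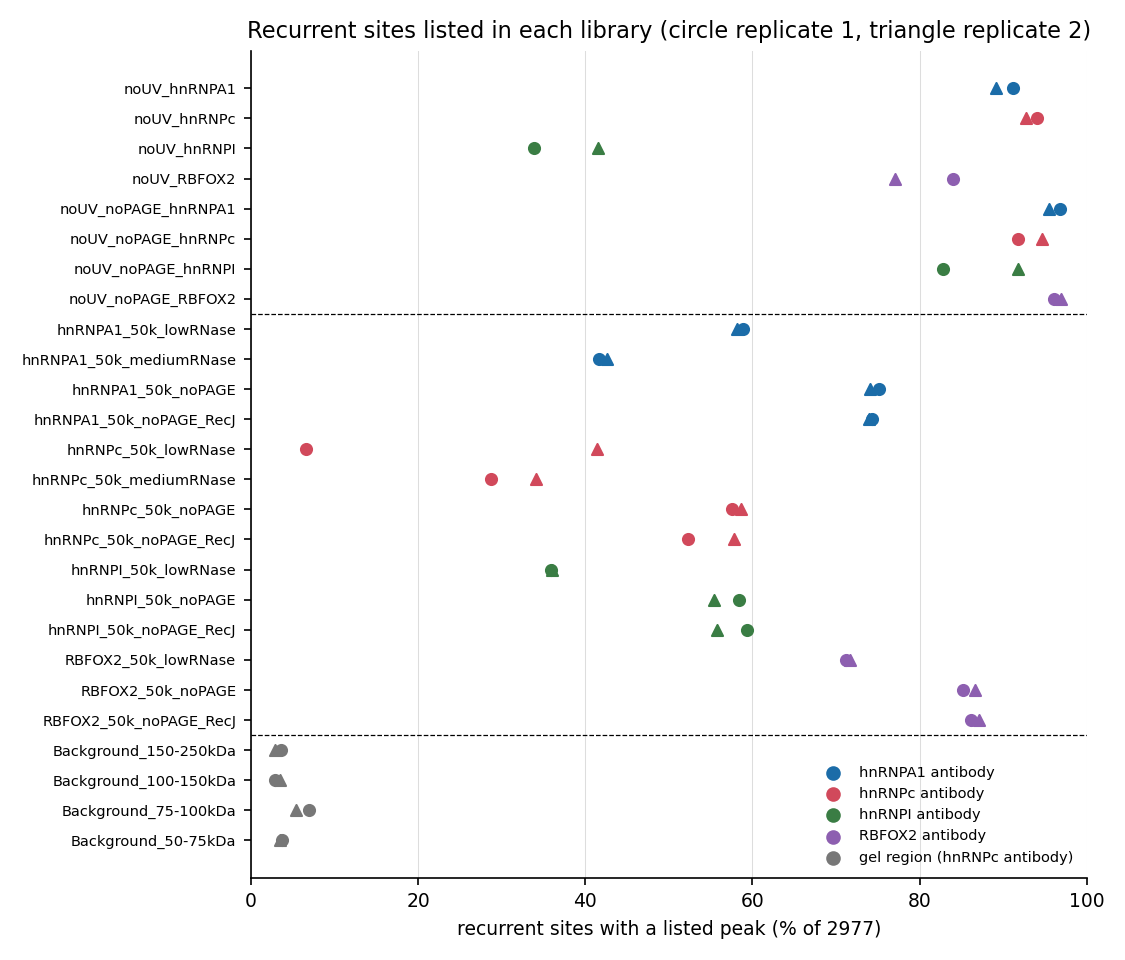
Percentage of the 2977 recurrent sites with a listed peak in each library (horizontal axis), by group, with replicate 1 as a circle and replicate 2 as a triangle; dashed lines separate libraries without UV, crosslinked 50k libraries and gel region libraries. RBFOX2 noPAGE libraries reach 85.2% to 87.1%, the hnRNPc_50k_lowRNase replicates lie apart at 6.65% and 41.4%, and gel region libraries lie between 2.86% and 6.92%.

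Listed peaks at the sites were strong within most lists. In the crosslinked 50k libraries the median listed site lay at the 57.8th to 94.4th percentile of its list's read numbers (median 87.7). The hnRNPI lists were the lowest, at 57.8 to 69.4, and the hnRNPA1 lists were at 85.3 to 94.4. In the lists without UV the same percentile was 60.5 to 96.0, again lowest in hnRNPI. The median summits of a site without and with UV were a median of 8 nt apart (interquartile range 3 to 26). They lay within 5 nt at 1100 of 2969 sites (37.0%). Both kinds of peak overlap the same site, so its width limits this distance. The median distance was 4 nt for sites of up to 100 nt and 12 nt for wider ones. The peak with most reads at a site had a median width of 65 nt without UV and 61 nt after crosslinking. Over all listed peaks at sites the order was reversed. Library medians were 43 to 52 nt (median 46.5) without UV and 43 to 66.5 nt (median 50.25) in the crosslinked 50k libraries.

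The 75 sites listed in all 28 crosslinked 50k libraries, the hnRNPc list of 3268 peaks included, were wider and stronger than most. Their median width was 226 nt and their median read number without UV 80.5, and 47 of them were listed in all 16 libraries without UV. Mitochondrial sites made up 8 of the 75, and any gel region library listed 44. Sites in all 28 included chr11:62609095-62609283 and chr6:52860646-52860748, described above, and chr1:45196759-45196842 on the minus strand, a narrow site with summits within 9 nt in all libraries without UV. The chromosome 1 site had 55 to 5396 reads without UV (median 1057). Per 1000 listed reads and with PAGE, it had 1.84 and 2.84 in RBFOX2, 1.31 and 1.17 in hnRNPI, 0.202 and 1.04 in hnRNPc, and 0.0172 and 0.0196 in hnRNPA1. After crosslinking it had 8890 and 8493 reads in RBFOX2_50k_noPAGE and 28 and 24 in hnRNPA1_50k_lowRNase.

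At the other end, 8 sites were listed in no crosslinked 50k library. All were weak, with median read numbers of 6 to 25 and maxima of 16 to 107, and none was listed in more than 13 of the libraries without UV. The strongest was chr22:39714558-39714597 on the minus strand, 40 nt wide. It had 107 and 79 reads in noUV_noPAGE_hnRNPA1, 57 and 64 in noUV_noPAGE_RBFOX2, 26 and 37 in noUV_hnRNPA1 and 17 to 31 in the hnRNPc libraries. None of the hnRNPI libraries listed it. A further pair lay 3 kb apart on the plus strand of chromosome 19, at chr19:49601684-49601748 (median 17.5) and chr19:49604649-49604769 (median 23). The sites chr2:96968897-96969069, chr13:24308531-24308563 and chr14:24572816-24573064 had medians of 11, 7.5 and 10. Of the 8, 4 were listed in at least 1 of the 16 crosslinked libraries of lower cell number, and 1, that on chromosome 13, in a gel region library.

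A site that is not listed may still hold reads. The strong site chrM:2368-2467 was listed in all 16 libraries without UV and in none of the 4 hnRNPA1_50k_noPAGE and noPAGE_RecJ libraries, while chrM:2200-2298 beside it had 100802 to 118935 reads in those same 4 libraries. The site chrM:2664-2764 was listed in 3 of 28 crosslinked libraries, with 11646 to 16650 reads where listed. Shares of sites listed are therefore shares of peak calls, not of sites with reads.

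The gel region libraries listed few peaks, and many of these lay at the sites. Any of the 8 listed 348 sites (11.7%), against 0.455% of all merged intervals, and at the most covered base 6.62%, against 0.242%. Both replicates listed 1.88% of the sites at 150 to 250 kDa, 2.38% at 100 to 150, 2.82% at 75 to 100 and 2.62% at 50 to 75, against 0.0105%, 0.0126%, 0.02% and 0.0162% of all intervals. Each library listed 2.86% to 6.92% of the sites. Of the peaks in a gel region list, 47.2% and 41.1% lay at sites at 100 to 150 kDa, 37.2% and 34.1% at 50 to 75 kDa, 22.5% and 7.16% at 150 to 250 kDa, and 4.73% and 4.96% at 75 to 100 kDa, where the lists were longest.

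The sites' share of reads in the gel region lists split the same way. It was 58.4% and 59.3% at 100 to 150 kDa, 55.2% and 53.4% at 50 to 75 kDa, 47.5% and 26.2% at 150 to 250 kDa, and 3.17% and 1.62% at 75 to 100 kDa. With peaks under 30 nt apart joined it was 6.36% and 4.21% at 75 to 100 kDa and 24.98% to 59.4% elsewhere. In the 75 to 100 kDa lists a single peak that is no recurrent site, on chromosome 15 starting at 87435269, had 58805 and 73432 reads and held 20.5% and 18.2% of the list. In 5 of the other 6 lists the peak with most reads lay at chrM:2765-2902, with 335 to 491 reads.

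Sites in the gel region lists tended to be the more recurrent and stronger ones, with exceptions. All 8 libraries listed 33 sites and 6 or more listed 68, and 13 of the 68 were mitochondrial. Of the 348 sites in all 16 libraries without UV, 36.5% were listed in any gel region library, and of the 45 mitochondrial sites 24 (53.3%). The 2629 sites in no gel region library had a median read number of 19.5 without UV, and the 33 in all 8 had 188.5 (range 8 to 14045). Of these 33, 22 were in all 16 libraries without UV. The mitochondrial sites chrM:2765-2902, chrM:1673-1792, chrM:1827-1922, chrM:2200-2298 and chrM:1389-1500 were listed by all 8, with median read numbers of 361.5, 222, 201.5, 201.5 and 138. At chrM:2765-2902 the values were 367 and 245 at 150 to 250 kDa, 335 and 491 at 100 to 150, 399 and 297 at 75 to 100, and 356 and 402 at 50 to 75. Per 1000 listed reads these were 27.04 and 15.04, 37.0 and 46.9, 1.39 and 0.735, and 33.9 and 38.6, lowest at 75 to 100 kDa. With 2 replicates per region the regions were not tested against each other.

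The 16 crosslinked libraries of lower cell number listed 32.8% to 72.1% of the sites. RBFOX2_10k listed 69.1% and 72.1% and RBFOX2_1k 39.1% and 41.0%, while hnRNPc_10k listed 42.8% and 40.5% and hnRNPc_1k 32.8% in both. The hnRNPc libraries titled 5k and 500, which a label gives as 50000 cells, listed 40.2% to 57.8%. All of these were made without PAGE and with 0.005 U of RNase, some with RecJ. They thus differ from the 10k and 1k groups, whose titles name no omission of PAGE, in more than cell number. In the 10k and 1k groups the RNase dose fell with the cell number, and their list lengths differed too (140539 and 167449 peaks in RBFOX2_10k, 49247 and 72602 in RBFOX2_1k), so cell number cannot be told apart from RNase dose. The part of list length in these shares was not tested.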

How the data were processed

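Each of the 68 libraries came as a deposited list of peaks with position, strand, gene identifier, a read number and a p-value that the authors' peak caller assigned to each peak. Whether that p-value is adjusted is not given in the sources used here. Per the submitters' processing notes, reads were handled with bcl2fastq, STAR 2.7.3a and UMI-tools 1.0.1 on genome build hg19. From these lists, peaks of 16 libraries without UV were pooled and merged where they shared 1 nt or more on a strand. Intervals with peaks in 12 or more libraries were kept as sites. A site is listed in a library when a peak overlaps it by 1 nt or more. Depth is unknown, since reads outside listed peaks are not part of the lists. The number of libraries limits the precision.

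The sites, the gene lists and the tests were chosen with earlier results of these data known. Named sites and genes are the 12 listed in most libraries without UV (ties by median read number), the 10 genes with most sites, the 6 in fewest crosslinked 50k libraries, the 6 in most gel region libraries, and 2 on each side of the threshold. The chromosome 1, 11 and 14 sites outside this rule were picked after their values were seen, among the nuclear sites with most reads. Gene lists by symbol could not be applied, since 0 identifiers were paired with symbols. Crosslinked groups were compared with exact permutation tests over libraries in Python 3.11.15 with NumPy 2.4.6, adjusted over 8 tests (Benjamini-Hochberg, threshold 0.05). The code was tested on simulated lists. Libraries were not paired by replicate number, since read numbers at the sites in same-numbered libraries of the PAGE and RecJ contrasts hardly deviated together. The correlations ran from -0.0240 to 0.0538. Whether same-numbered libraries shared a culture or batch was not tested. Alternatives were other thresholds, merging rules, p-value limits, joining rules, leaving out libraries and a replicate block.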

Additional observations from a re-analysis of the deposited data

How the results depend on the processing

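The direction of the gain in listed sites without PAGE and its side of the threshold held in all 43 alternatives run. Leaving out 1 library at a time gave 17.1 to 25.7 points for that gain, 6.56 to 13.7 for the share of reads and -5.25 to -2.62 nt for width. For RecJ the same ranges were -1.24 to 0.130 points, -0.531 to 0.850 points and -0.188 to 0.375 nt, so its sign was not settled. For the antibody ranges they were 24.1 to 30.5 points of sites and 29.6 to 31.7 points of reads. Over these settings, the mean share of sites listed was 56.9% to 62.0% in crosslinked 50k libraries (58.0% with all) and 3.64% to 5.41% in gel region libraries (4.05% with all), and the number of sites was 2076 to 2817. Where a library without UV was left out, 12 of the remaining libraries were still needed. Such omissions therefore mix the loss of a library with a stricter rule for sites. With a threshold of 10, 14 or all 16 libraries there were 6176, 1342 or 348 sites, listed in 50.3%, 66.3% or 80.3% of crosslinked and 2.39%, 7.01% or 18.1% of gel region libraries. Peaks with p below 1e-05 alone gave 1576 sites.

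The width difference without PAGE passed the threshold at 14 libraries (-5.56 nt), at all 16 (-7.62 nt), with merging at 10 nt (-4.69 nt), with p below 1e-05 (-7.88 nt), over bases covered by 12 or more libraries (-5.31 nt) and without sites over 200 nt (-4.12 nt). The antibody range of listed sites passed at 10 libraries (33.5 points), at 14 (20.7), with merging at 10 nt (29.0), with p below 1e-05 (33.7), without sites over 200 nt (30.6) and with peaks under 30 nt apart merged (28.2). The antibody range of reads missed it at 10 libraries (33.0 points), with that merging (31.8) and with lowRNase in place of noPAGE (14.2). Omissions of 1 library changed the call of width in 12 of 32, of the antibody range of listed sites in 8 of 24, of that of reads in 3 of 24, and of the share of reads without PAGE in 1 of 32, each named beside its result. RecJ changed sign for reads over covered bases (-0.00986 points), with summed read numbers (-0.276) and without mitochondrial sites (-0.369). The cause was not tested. With the replicate block, the adjusted exact permutation p of the gain in listed sites was 0.0381 (21.4 points), and no call changed. The joining of peaks under 30 nt apart and the merging of touching or close peaks were added after the data were seen. Counting error could not be set, since depth is unknown.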
